A study of Homo sapiens with 28 samples.

Results

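H1944 is an established human lung adenocarcinoma line, here carrying MGT#1-mVenus, a synthetic reporter in which designed regulatory DNA drives a yellow fluorescent protein. The comparison described is between H1944 cells sorted as high and as low for that reporter after 11 days in 5 µM GSK126, with 3 libraries in each gate (A, B and C), chosen by line, gate and agent as the column names give them. These are 6 of the 28 libraries of the series, which also covered A549 cells and TGF-β1 and had a total RNA readout throughout. Further kinds of H1944 library serve as reference. The 3 naive libraries are titled as unsorted controls, and their labels give no agent or days. The others are the high and low reporter gates of cells kept for 11 days in 5 ng/ml TGF-β1, with 3 libraries per gate. Between a gate and naive cells, treatment and sorting therefore cannot be told apart. All of these cells carry the reporter, both GSK126 gates had the same exposure to the inhibitor, and no GSK126-treated library without a gate was analysed here. The labels do not say whether the letters stand for separate cultures or sorts, so p-values measure the spread between these libraries, which may be technical, in 1 line.

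GSK126 inhibits EZH2, the enzyme of Polycomb repressive complex 2 that methylates lysine 27 of histone H3, a mark that keeps many developmental and lineage genes silent. In epithelial-mesenchymal transition (EMT), epithelial cells lose E-cadherin junctions and gain vimentin, fibronectin and a contractile cytoskeleton, and in lung cancer cells TGF-β, acting through SMAD proteins, is a well-known inducer of it. A reporter sort divides a treated population by the activity of the reporter's regulatory DNA, so the comparison asks which endogenous transcripts differ along with it.

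The reporter transcript was examined first because it checks the gates. mVenus stood at 862, 808 and 906 counts per 1000000 library counts (CPM) in high-gate libraries A, B and C, and at 239.6, 209 and 280.5 CPM in the low-gate libraries. The gates did not overlap, and the difference was 1.83 ± 0.10 on the log2 scale (SE throughout for log2 differences; adjusted p = 7.01e-15). Naive cells lay between the gates, at 327, 394 and 346 CPM. mVenus is left out of all counts of changed genes.

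The 6 libraries held 2077191 to 4550040 counts (median 3305541.5), so a count of 0 in a single library allows up to 3 counts, and such floors and the intervals below cover counting error only. Mitochondrial transcripts took 5.57 to 5.68% of counts in the high gate and 5.47 to 5.85% in the low gate. The summed level of 376 olfactory receptor genes, an indication of stray reads, was 9.23, 16.9 and 76.1 CPM in high-gate libraries A, B and C and 7.97, 39.1 and 12.4 CPM in the low-gate libraries. High-gate library C also stood farthest out on the first principal component, which held 41.3% of the variance. Of 9 lung epithelial markers, whose sum was 5400 to 7687 CPM in the high and 4945 to 5980 CPM in the low gate, KRT8 carried most; NKX2-1, the lung lineage factor, was at 0 in every low-gate library and at most 0.659 CPM in the high gate. NAPSA and SFTPB, alveolar products, stayed at or below 1.93 CPM in both gates, so the labelled lung origin rests here on keratins rather than on alveolar markers.

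Of 13621 genes tested, 944 (6.93%) differed between the gates at an adjusted p under 0.05 by edgeR's quasi-likelihood test: 493 (3.62%) were higher and 451 (3.31%) lower in the high gate. The 493 had a median difference of 0.60 and included 481 protein-coding genes; the 451 had a median of −0.48 and included 432. Differences of at least 2-fold were mostly increases, with 104 genes higher (0.764%) and 15 lower (0.11%), together 0.874%. The libraries of the 2 gates did not overlap for 22.0% of all tested genes, with the high gate above for 11.7%. The median over all tested genes was 0.03. Taking the letters as pairs raised the count to 1476, and leaving out 1 library gave 308 without low-gate library B, 533 without high-gate A, 584 without high-gate C and 1374 without high-gate B. In bulk libraries fewer cells of a kind and less RNA per cell cannot be told apart, so these are differences of the sorted populations.

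**Figure D1:**
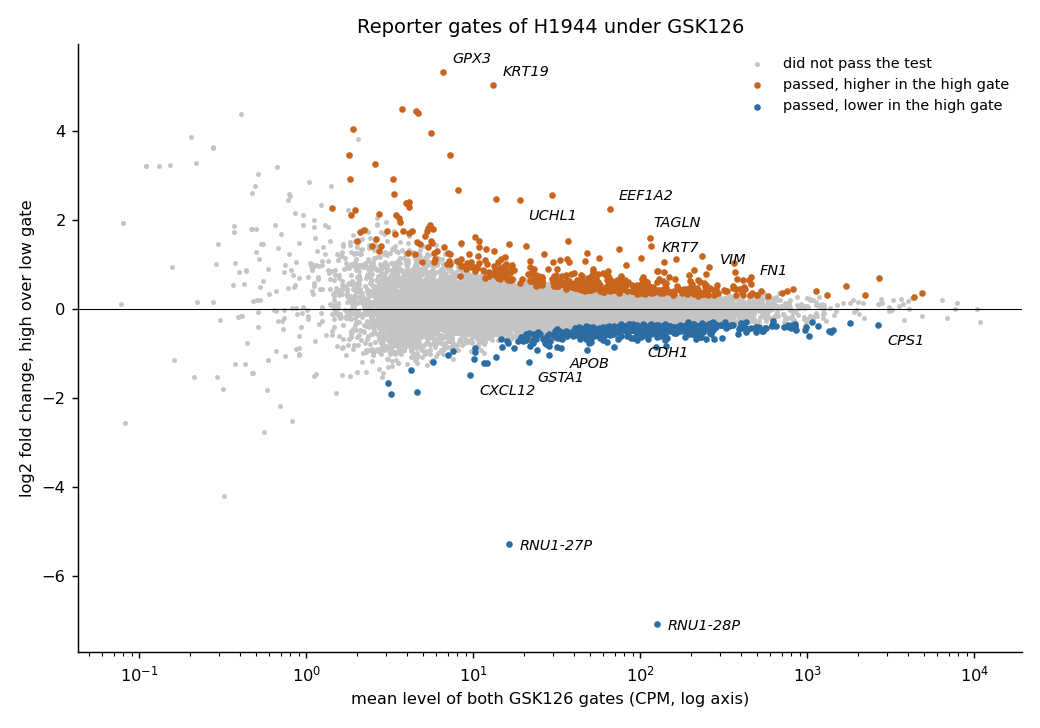
Each point is 1 tested gene: the horizontal axis gives its mean level over the 6 GSK126 libraries (CPM, log scale) and the vertical axis the log2 difference, high gate minus low gate; coloured points passed the test. The large differences lie above zero, and the strongest of them, GPX3 and KRT19, at 5.33 and 5.02, belong to genes of low to moderate level. The lowest points, RNU1-27P and RNU1-28P, are U1 RNA copies whose low-gate counts came almost wholly from library A.

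Protein-coding genes with the largest increases, among those averaging 2 CPM or more whose gates did not overlap, were mostly epithelial or secreted products that were close to absent from the low gate. GPX3, an extracellular glutathione peroxidase (chromosome 5, 151020438 to 151028993, GRCh38), was at 11, 13.8 and 14 CPM in the high gate and at 0.638, 0.247 and 0 CPM in the low gate. That is 119 counts against 3, which gives a ratio of 44.4 (14.8 to 218 at 95%, from counting error), and the fitted difference was 5.33 ± 0.63 (adjusted p = 5.8e-07). KRT19, a simple-epithelium keratin (chromosome 17, 41523617 to 41528308), stood at 24.0, 26.6 and 26.0 CPM against 0.319, 0.495 and 1.44 CPM (5.02 ± 0.36, adjusted p = 2.73e-11). The KRT19 gates were far apart, and its naive libraries, at 18.9, 17.5 and 18.1 CPM, lay much nearer the high gate.

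RARRES1, a retinoic acid responsive gene (chromosome 3, 158696892 to 158732696), followed the same order, with 10.3, 9.33 and 6.26 CPM in the high gate, 0, 0.247 and 0.863 CPM in the low gate, and 15.4 to 22.9 CPM in naive cells (4.45 ± 0.55, adjusted p = 2.38e-06). PLTP, which transfers phospholipid between lipoproteins, had 6.37, 8.29 and 12 CPM against 0.319, 0.495 and 0.288 CPM (4.39 ± 0.64, adjusted p = 2.67e-05). For both genes the lowest high-gate library exceeded the highest low-gate library, as the rule for naming them required. PROM2, a membrane-protrusion protein of epithelia, rose by 2.58 ± 0.63 (adjusted p = 0.0095), a call lost without low-gate library A or C, and KLK10, a secreted kallikrein protease, rose by 2.47 ± 0.27 (adjusted p = 2.47e-07). KLK10 held 19.1, 25.2 and 25 CPM in the high gate, 3.19, 4.70 and 4.32 CPM in the low gate and 19.1 to 20.6 CPM in naive cells.

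ZNF469, a zinc finger gene linked to corneal collagen (chromosome 16), had 66 counts in the high gate and 3 in the low gate, which gives a ratio of 24.6 (8.06 to 122 at 95%, from counting error; fitted difference 4.49 ± 0.67, adjusted p = 4.46e-05). CGA, the common alpha subunit of the glycoprotein hormones, was uneven: high-gate library B held 23.5 CPM against 9.67 and 7.22 CPM in A and C, and low-gate library B held 3.22 CPM where A and C had 0. Its difference was 3.46 ± 0.56 (adjusted p = 1.95e-04). INSYN2A, an inhibitory-synapse protein, and LRATD1 rose by 2.91 ± 0.64 (adjusted p = 0.00399) and 2.67 ± 0.44 (adjusted p = 2.33e-04).

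In these 10 of the 12 genes with the largest increases, the low gate was below the naive mean. That difference passed the test in all 10, and both TGF-β1 gates had means under 3 CPM. Picking genes by the gate difference favours low values in these same low-gate libraries, so their position against naive cells is a description. All 10 gate differences also passed after the trend with GC content and length, described below, was removed. With each library left out in turn, 9 of the 10 passed, PROM2 being the exception.

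**Figure D2:**
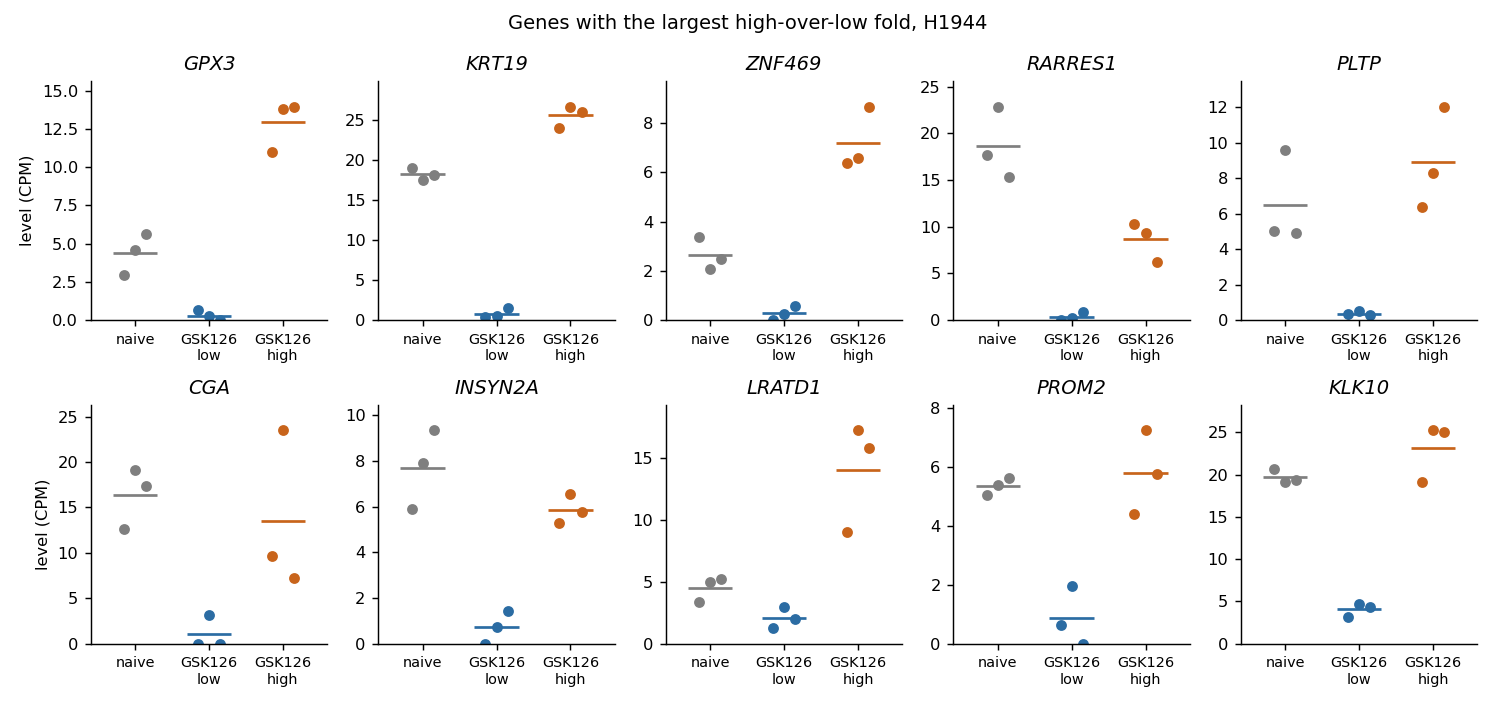
Level in CPM (linear axis) of 10 of the 12 protein-coding genes with the largest increases, each in its own panel; points are the 3 libraries of the naive, low-gate GSK126 and high-gate GSK126 groups, and the lines are group means. GPX3 reached 11 to 14 CPM in the high gate and at most 0.638 CPM in the low gate, and the naive points of KRT19 lie nearer its high gate.

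By the same rule, the 12 largest decreases were smaller and more often rested on single libraries. GSTA1, a glutathione transferase of gut and liver (chromosome 6, 52791664 to 52803910), was at 12.7, 15.5 and 10.1 CPM in the high gate and 30.9, 30.4 and 28.5 CPM in the low gate, a difference of −1.20 ± 0.23 (adjusted p = 0.00133). HLA-DMB, which loads peptide onto MHC class II, was at 7.91, 7.6 and 11.1 CPM against 18.5, 19.0 and 17.5 CPM (−1.09 ± 0.22, adjusted p = 0.00244), both below the naive 54.4 to 63.5 CPM. ADH6, an alcohol dehydrogenase, was at 18.9, 13.1 and 24.1 CPM against 32.2, 39.8 and 41.7 CPM (−1.04 ± 0.22, adjusted p = 0.00284). Gates that do not overlap were required of all 12 largest decreases. Of these 12, GSTA1, HLA-DMB and ADH6 alone kept their calls with each library left out in turn.

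CXCL12, a chemokine, showed the steepest fall, from 12.4, 13.4 and 17.0 CPM in the low gate to 5.93, 4.84 and 3.85 CPM in the high gate (−1.48 ± 0.36, adjusted p = 0.0095; lost without low-gate C). COL14A1, a collagen of fibril surfaces, fell from 61.9, 78.4 and 48.3 CPM to 31.6, 39.4 and 27.9 CPM (−0.92 ± 0.20, adjusted p = 0.00357; lost without low-gate B), and naive cells held at most 1.68 CPM. GUCY2C, the intestinal guanylin receptor (−1.21 ± 0.30, adjusted p = 0.0122), and TMEM176B (−1.22 ± 0.31, adjusted p = 0.0146) were lost without high-gate A or low-gate B. The other 5 were EDAR (−1.13), a receptor of the tumour necrosis factor family, ZNF624 (−0.94), the tRNA methylase TRMT13 (−0.89), the SUMO protease SENP7 (−0.87) and the lipoprotein APOB (−0.87). TRMT13 lost its call without high-gate A or low-gate A, and SENP7 without either or without low-gate C. ZNF624 lost it without low-gate B or any 1 high-gate library, APOB without high-gate A, high-gate C or any 1 low-gate library, and EDAR without high-gate B, high-gate C or any 1 low-gate library. ZNF624, SENP7 and APOB lost it when the GC and length trend was removed. In 7 of the 12, GSTA1 and CXCL12 among them, the low gate passed the test above naive cells. Picking decreases by the gate difference favours high values in these low-gate libraries, so this position too is a description.

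Promoter sequences are shown for the strongest matched gene pairs whose calls held with each library left out: GPX3 and RARRES1, which rose, and GSTA1 and HLA-DMB, which fell. Each is the 250 bases before the RefSeq start on GRCh38.p14, 5′ to 3′ with respect to the gene, with CG dinucleotides in capitals; GPX3 lies at chr5:151020341-151020590 (plus strand), RARRES1 at chr3:158732458-158732707 (minus), GSTA1 at chr6:52803817-52804066 (minus) and HLA-DMB at chr6:32941029-32941278 (minus).
GPX3: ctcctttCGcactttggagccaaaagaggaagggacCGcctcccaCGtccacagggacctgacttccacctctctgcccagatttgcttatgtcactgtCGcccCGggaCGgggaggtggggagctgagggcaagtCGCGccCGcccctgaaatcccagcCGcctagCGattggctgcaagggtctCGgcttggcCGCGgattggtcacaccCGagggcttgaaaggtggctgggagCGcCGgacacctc
RARRES1: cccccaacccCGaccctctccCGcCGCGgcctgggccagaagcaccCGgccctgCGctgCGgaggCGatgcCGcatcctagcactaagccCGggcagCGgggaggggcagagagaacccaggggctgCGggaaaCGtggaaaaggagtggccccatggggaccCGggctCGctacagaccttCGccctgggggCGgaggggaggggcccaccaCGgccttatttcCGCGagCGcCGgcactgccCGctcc
GSTA1: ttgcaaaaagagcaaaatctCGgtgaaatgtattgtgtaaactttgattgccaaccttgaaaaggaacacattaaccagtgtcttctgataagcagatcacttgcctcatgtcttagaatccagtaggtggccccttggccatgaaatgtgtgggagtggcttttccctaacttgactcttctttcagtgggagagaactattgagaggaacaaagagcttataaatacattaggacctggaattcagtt
HLA-DMB: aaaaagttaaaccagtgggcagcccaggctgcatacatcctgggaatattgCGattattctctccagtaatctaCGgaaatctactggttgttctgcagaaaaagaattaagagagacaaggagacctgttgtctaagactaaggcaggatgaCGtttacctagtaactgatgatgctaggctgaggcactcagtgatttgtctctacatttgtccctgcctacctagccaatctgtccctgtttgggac
GPX3 and RARRES1 hold 17 and 23 CG dinucleotides, whereas GSTA1 holds 1 and HLA-DMB holds 3. Over the matched genes the median was 17 in 8 of the 12 largest increases and 7 in 7 of the 12 largest decreases, beside 11 over all 27305 promoters. The 2 sets overlapped, since CGA, which rose, holds 4 and CXCL12, which fell, holds 31. Motifs were searched on both strands. The AP-1 letters TGANTCA were in none of these 15 promoters (6.6% of all promoters hold them), and the TEAD letters GGAATG were in 1 of 8 and 1 of 7 (11.9% of all). The E-box CACCTG was in 1 of 8 and 0 of 7 (17.5% of all), the SMAD letters CAGACA in 0 of 8 and 1 of 7 (13.6% of all) and TATAAA in 1 of each (11.1% of all). A match is a description of letters and marks no binding site.

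Among canonical EMT genes, the 7 that passed the test encode filament, adhesion, matrix and signalling proteins, and none was a transcription factor. Of the 16 central EMT genes, 6 rose and 1 fell, beside 3.62% and 3.31% of all genes. The same 6 increases held with each library left out. Counts of the lists below are to be read beside these 2 shares. VIM, the mesenchymal intermediate filament (chromosome 10, 17228259 to 17237593), was at 380, 275 and 356 CPM in the high gate and 194, 148 and 190 CPM in the low gate (0.93 ± 0.11, adjusted p = 9.73e-07), the low gate lying near the naive mean of 155 CPM. FN1, fibronectin (chromosome 2, 215360440 to 215436172), was at 546, 539 and 556 CPM against 372, 359 and 377 CPM, and at 6.31 to 8.32 CPM in naive cells (0.57 ± 0.08, adjusted p = 2.13e-05). Both FN1 gates thus lay far above naive cells, with the high gate above the low gate in all 3 letters.

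AXL, a receptor tyrosine kinase often raised in mesenchymal-type lung cancer cells, rose from 7.97, 8.41 and 9.78 CPM to 27, 19.7 and 25 CPM (1.47 ± 0.26, adjusted p = 3.61e-04). The ligand TGFB2 was at 44.2, 41.8 and 34.7 CPM against 23.3, 16.3 and 20.1 CPM (1.05 ± 0.16, adjusted p = 4.52e-05). MMP2, a gelatinase, and COL1A1, the main chain of type I collagen, rose by 1.27 ± 0.23 (adjusted p = 6.97e-04) and 0.89 ± 0.13 (adjusted p = 4.63e-05). CDH1, E-cadherin (chromosome 16, 68737225 to 68835548), was the decrease: 64.8, 82.6 and 81.8 CPM in the high gate, 113, 116 and 125 CPM in the low gate and 267 to 278 CPM in naive cells (−0.64 ± 0.11, adjusted p = 2.93e-04). The 3 groups of CDH1 values did not overlap, and the high gate lay farthest from naive cells.

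The EMT transcription factors did not pass the test. ZEB1 had 17.8, 27.6 and 26.0 CPM against 22.6, 30.2 and 21.9 CPM (adjusted p = 0.75), and ZEB2 differed by −0.13 (adjusted p = 0.857). SNAI1 differed by −0.29 (adjusted p = 0.768), at 1.98 to 5.30 CPM, and TWIST1 by −0.71 (adjusted p = 0.341). SNAI2 was higher by 0.70 ± 0.25 without passing (adjusted p = 0.081, and 0.041 with the GC and length trend removed). CDH2, N-cadherin, EPCAM and CD44 also missed the threshold (adjusted p = 0.492, 0.203 and 0.335). The signs of ZEB1, ZEB2, SNAI1 and CDH2 turned under some alternatives. EZH2, the target of GSK126, was at 70.3, 73.6 and 67.4 CPM in the high gate and 75.3, 88.3 and 86.0 CPM in the low gate (−0.23 ± 0.11, adjusted p = 0.195), and none of 14 tested PRC2 and H3K27 regulators passed in edgeR or DESeq2 (2 at an unadjusted p under 0.05).

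TGF-β target genes as a list moved upward: 17 of 32 tested rose and none fell, with a median of 0.50. Among them was TAGLN, an actin-binding smooth muscle protein (chromosome 11, 117199321 to 117204782), at 178, 130 and 205 CPM against 53.3, 48.0 and 69.6 CPM (1.59 ± 0.14, adjusted p = 2.15e-09). TGFBI, a secreted adhesion protein, was at 588, 399 and 485 CPM against 260, 214 and 249 CPM (1.04 ± 0.10, adjusted p = 2.56e-08). The TGFBI low gate overlapped none of the high gate and lay near the naive mean of 278 CPM. Over a broader mesenchymal list 11 of 30 rose and none fell (median 0.56), a count of 8 to 11 with 1 library left out. Targets of YAP and TEAD, which relay cell tension, rose in 10 of 30 with none lower (median 0.25; 5 without high-gate A). They included CCN1, at 139, 127 and 128 CPM against 100.5, 85.1 and 76.8 CPM (0.60 ± 0.10, adjusted p = 4.12e-04), and CCN2, at 107, 106 and 89.5 CPM against 75.0, 69.8 and 55.8 CPM (0.61 ± 0.11, adjusted p = 5.35e-04).

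Genes of the contractile apparatus rose in 7 of 17 with none lower (median 0.34). MYL9, a myosin light chain, was at 54.9, 50.4 and 58.7 CPM against 19.5, 15.6 and 22.4 CPM (1.52 ± 0.15, adjusted p = 2.96e-08). ACTA2, smooth muscle actin, was at 14.9, 9.67 and 23.6 CPM against 5.42, 4.21 and 6.62 CPM (1.53 ± 0.28, adjusted p = 5.71e-04). Filamin A, FLNA, crosslinks actin and rose by 0.70 ± 0.09 (adjusted p = 2.58e-06), and the tropomyosin TPM2 by 0.68 ± 0.10 (adjusted p = 4.95e-05). None of these 4 had overlapping gates.

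Extracellular matrix genes followed the same direction. Of 25 collagens 10 rose and 1, COL14A1, fell (median 0.66; 5 higher without high-gate C and 6 without low-gate B or C). The basement membrane chain COL4A1 was at 455, 423 and 529 CPM against 254, 264 and 277 CPM (0.83 ± 0.09, adjusted p = 4.86e-08), its partner COL4A2 rose by 0.68 ± 0.09 (adjusted p = 8.34e-06), and COL18A1 by 1.15 ± 0.13 (adjusted p = 2.72e-07). COL7A1, the anchoring fibril collagen, was at 235, 218 and 217 CPM against 102, 97.5 and 108 CPM (1.13 ± 0.10, adjusted p = 8.88e-10). Both COL4A1 and COL7A1 showed a narrow spread within each gate and no overlap.

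Of 38 matrix glycoproteins and laminins 16 rose and none fell (median 0.49; 10 without high-gate A and 9 without low-gate B), among them agrin, AGRN (0.66 ± 0.09), and LTBP2 (1.09 ± 0.15), which belongs to the latent TGF-β binding proteins. Matrix proteases and their inhibitors rose in 9 of 27 (median 0.47; 4 without low-gate B, 5 without high-gate A and 6 without high-gate C), with SERPINE2 at 0.82 ± 0.12 and ADAM19 at 0.86 ± 0.18, the latter lost without low-gate B. Integrins, the matrix receptors, rose in 5 of 18 (median 0.33; 2 without low-gate B and 3 without high-gate A, high-gate B or low-gate C). ITGA5, the fibronectin receptor chain, rose by 0.71 ± 0.13 (adjusted p = 5.13e-04) and ITGB4, the hemidesmosome chain, by 0.55 ± 0.10 (adjusted p = 4.11e-04). ITGB4 stood at 213 to 253 CPM in the low gate and 310 to 387 CPM in the high gate, both below the naive mean of 748 CPM. Fibroblast markers share matrix genes with these lists. They summed to 73.3 to 120 CPM in the high gate, 42.4 to 58.9 CPM in the low gate and 13.1 to 17.7 CPM in naive cells. COL1A1 carried most of each sum, with means of 67.6, 36.1 and 9.95 CPM in these groups. Of the 11 fibroblast markers none was at 0 in either gate and 5 were under 1 CPM in the low gate. The part of these markers in the result was not tested.

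**Figure D3:**
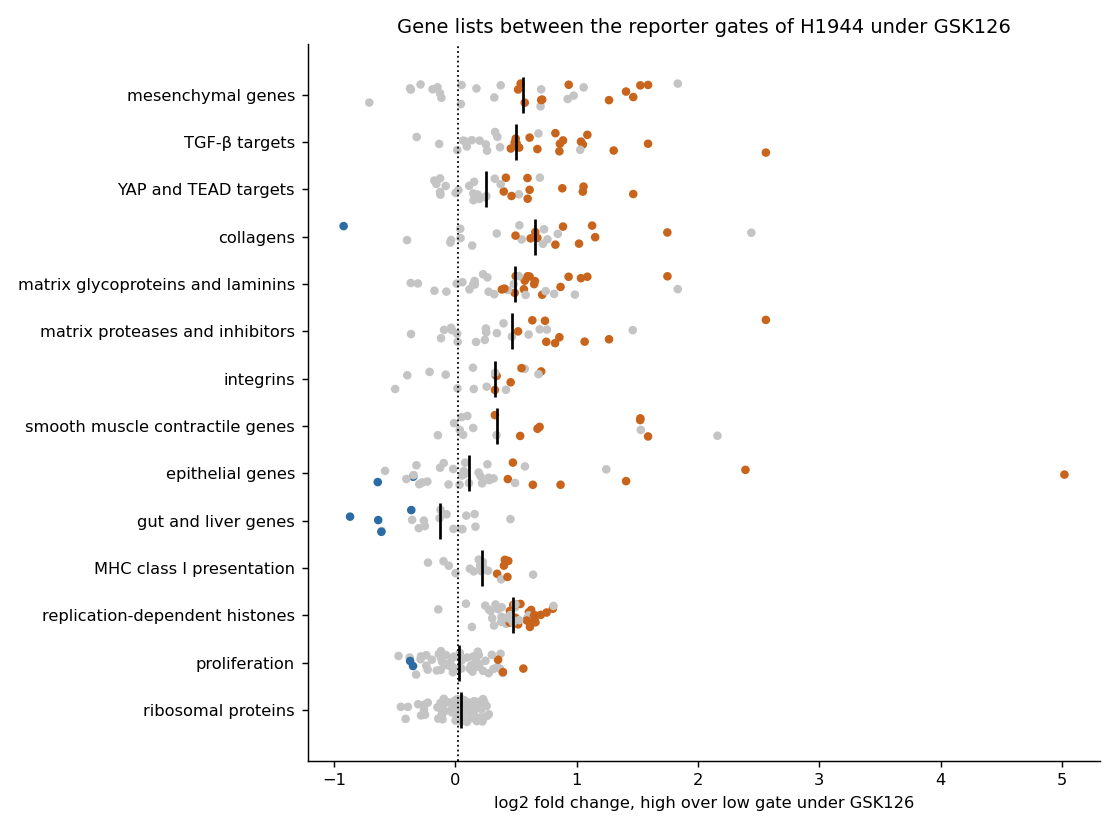
Each point is the log2 difference (high gate minus low gate) of 1 tested gene, in rows by gene list; orange and blue points passed the test as higher and lower, grey points did not pass, black bars are list medians and the dotted line is the median of all genes, 0.03. TGF-β targets (median 0.50) and collagens (median 0.66) lie mostly to the right of the dotted line, and ribosomal proteins (median 0.05) straddle it.

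Epithelial genes did not move as a block: 7 of 37 rose and 2 fell (median 0.11; 4 higher without low-gate B or low-gate C). KRT7, a simple-epithelium keratin (chromosome 12, 52232520 to 52252186), was at 166, 172 and 163 CPM in the high gate, 65.7, 56.2 and 67.9 CPM in the low gate and 116 to 133 CPM in naive cells (1.41 ± 0.11, adjusted p = 3.16e-11). Thus KRT7 and KRT19 were lower in the low gate than in either the high gate or naive cells, whereas CDH1 was lower in the high gate. The epidermal keratin KRT17 was at 301, 292 and 381 CPM against 144, 127 and 154 CPM (1.20 ± 0.10, adjusted p = 4.59e-10).

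MUC4, a membrane mucin, followed the KRT7 order, at 28.8, 35.9 and 26.0 CPM in the high gate, 9.57, 14.6 and 9.49 CPM in the low gate and 22.5 to 29.5 CPM in naive cells (1.42 ± 0.22, adjusted p = 8.93e-05). It was the only one of 11 mucin and CEACAM genes to pass in edgeR; MUC5B, a gel-forming mucin, was at −0.31 ± 0.10 (adjusted p = 0.06). MUC5B was called lower with the letters as pairs, in DESeq2 (adjusted p = 0.022) and with the GC and length trend removed (−0.51, adjusted p = 1.49e-04). DESeq2 gave no adjusted p for MUC4, so that MUC5B was the 1 gene of this list it called. UCHL1, a deubiquitinase also used as a neuroendocrine marker, was at 32.5, 35.9 and 27.4 CPM against 4.47, 6.43 and 6.62 CPM (2.45 ± 0.23, adjusted p = 4.52e-09) with a naive mean of 21.0 CPM. Other neuroendocrine genes did not accompany it, as 1 of 6 tested passed and INSM1 was at 0. Among genes chosen after their values were seen, EEF1A2, a tissue-restricted translation elongation factor (chromosome 20, 63488012 to 63499322), was at 106, 123 and 94.8 CPM against 25.8, 21.8 and 21.0 CPM (2.25 ± 0.14, adjusted p = 1.39e-13), with naive cells between at 46.8 to 51.6 CPM. GRHL2, an epithelial transcription factor also chosen after its values were seen, was at 4.18, 6.56 and 9.63 CPM against 0, 2.23 and 1.15 CPM (2.39 ± 0.64, adjusted p = 0.019; lost without high-gate C, low-gate A or low-gate C).

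Gut and liver genes, which H1944 expresses, were lower in the high gate where they passed: 4 of 19 fell and none rose. The median was −0.13, and 2 fell without low-gate B. Between the TGF-β1 gates 3 of the 19 also fell and none rose (median −0.23). The gate effects of the 2 treatments did not differ for any of the 19 by the test given below. FGB, the fibrinogen beta chain, was at 758, 1008 and 657 CPM in the high gate and 1259, 1323 and 1127 CPM in the low gate (−0.61 ± 0.12, adjusted p = 9.94e-04). CPS1, the first enzyme of the urea cycle, was at 2194, 2477 and 2305 CPM against 2842, 3099 and 3053 CPM (−0.36 ± 0.09, adjusted p = 0.00777). REG1A, a secreted lectin of pancreas and gut, fell by 0.63 on the log2 scale (SE 0.14, adjusted p = 0.00518; lost without low-gate B) and was near 0 in naive cells, with a mean of 0.634 CPM. APOB was the fourth. None of 10 tested lung alveolar and secretory genes passed in edgeR (3 at an unadjusted p under 0.05, and 1 lower in DESeq2).

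Replication-dependent histone genes, which encode the bulk of nucleosomal histone, rose in 22 of 50 with none lower (median 0.48). H1-5, a linker histone, was at 521, 437 and 560 CPM against 299.5, 307 and 356 CPM (0.66 ± 0.11, adjusted p = 1.22e-04), and the core histones H2AC20, H2AC6 and H2AC12 rose by 0.62 to 0.70. The histone count was among the least steady: 6 without low-gate B, 7 without high-gate A, 35 without high-gate B and 11 with the GC and length trend removed, under which H2AC20 was lost. Of 60 proliferation genes, 3 (5%) rose and 2 fell, near the 3.62% and 3.31% of all genes. AURKB at 0.56 and MYBL2 at 0.39 were among the increases, and CENPF at −0.35 and ECT2 at −0.37 were the decreases. These 4 calls were lost when the GC and length trend was removed, although the list then still counted 3 higher and 1 lower through other members. None of the 3 increases held without high-gate A, low-gate A or low-gate B, and neither decrease without high-gate C or low-gate B. The growth-arrest genes CDKN1A (157, 152 and 169 CPM against 106, 86.8 and 109 CPM; 0.67 ± 0.11, adjusted p = 1.21e-04) and PLK2 (0.85 ± 0.12, adjusted p = 8.34e-06) rose, as 2 of 3 increases among 25 p53 targets, and the third, TP53INP1, also induced by p53, was lost without high-gate B or C or low-gate B or C.

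MHC class I presentation genes rose in 5 of 21 (median 0.22; 1 without low-gate B, 2 without high-gate A or low-gate C, and 1 with the trend removed), with HLA-C at 0.40 ± 0.09 (adjusted p = 0.00592, and 0.247 with the trend removed). Interferon-stimulated genes passed in 2 of 36 (5.56%, near the 3.62% of all genes that rose), ISG15 (0.97) and IFI6 (0.80). Both were lost with the trend removed, when 1 other member passed as higher. IFI6 was also lost without high-gate A, high-gate C or any 1 low-gate library. Of 31 NRF2 targets, 4 rose, among them the heme-degrading enzyme HMOX1, at 40.7, 40.4 and 43.3 CPM against 19.1, 19.0 and 28.2 CPM (0.91 ± 0.17, adjusted p = 7.01e-04), and AKR1B1, an aldose reductase (0.73 ± 0.12, adjusted p = 1.95e-04). Secreted growth factors rose in 6 of 28 (median 0.29; 1 without high-gate A and 1 without low-gate B), including NRG1 (0.57 ± 0.12), a ligand of ERBB receptors lost without either library, and VEGFA (0.46 ± 0.11; lost without high-gate A). Hypoxia and glycolysis genes rose in 5 of 27 (median 0.20; 2 without high-gate A and 3 without low-gate B), with the glucose transporter SLC2A1 at 0.56 ± 0.11 and the collagen prolyl hydroxylase P4HA2 at 0.79 ± 0.14. Immediate early genes rose in 4 of 26 (median 0.15; 2 without high-gate A or low-gate B), among them PHLDA1 (0.80 ± 0.15) and the phosphatase DUSP1 (0.59 ± 0.12).

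Several groups showed no calls, or a few that are to be read beside the 6.93% of all genes that passed in either direction. In a short list such a share leaves room for no calls. None of 77 ribosomal protein genes passed in edgeR (median 0.05; 10 at an unadjusted p under 0.05), while DESeq2 called 1 higher and 2 lower and the fit with paired letters 2 higher and 4 lower. None of 15 mitochondrially encoded genes passed in either tool (0 at an unadjusted p under 0.05). NF-κB and inflammatory genes passed in 1 of 32, LIF (0.57 ± 0.14; lost without low-gate B and with the trend removed), and cholesterol synthesis genes in 1 of 27 each way, with the sterol-pathway enzyme HMGCS1 (−0.41) lower, a call lost without high-gate C or low-gate B. The stress response list likewise gave HSPB1 (0.52; lost with the trend removed) higher and the endoplasmic reticulum chaperone HSP90B1 (−0.48) lower, of 24. Among 53 developmental transcription factors, many of them textbook PRC2 targets, HOXA3 (0.64) and SOX4 (0.36) rose and none fell, a share of 3.77% beside 3.62% of all genes; HOXA3 was lost without low-gate A or B, and SOX4 without high-gate A or any 1 low-gate library. With the trend removed both were lost (adjusted p = 0.0509 and 0.0522), and the list counted 0 higher and 1 lower. None of 11 cancer-testis genes passed in edgeR or DESeq2 (3 at an unadjusted p under 0.05).

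A trend with base composition ran through the whole comparison. In 5 bands of transcript GC content holding 2711 or 2712 genes each, from 27.8 to 40.6% up to 57.3 to 74.5%, the median gate difference rose from −0.16 through −0.09, 0.02 and 0.12 to 0.21. It was present in each pair of libraries, from −0.12 to 0.17 in A, −0.10 to 0.13 in B and −0.35 to 0.30 in C, and between the TGF-β1 gates the medians stayed between −0.02 and 0.01. The called genes followed it: 224 of the 493 increases and 3 of the 451 decreases lay in the highest band, 18 and 248 in the lowest. With the trend of GC and length removed, 634 genes passed, 355 higher and 279 lower, of which 485 were among the 944. Of the lists above, TGF-β targets then counted 14 higher, the mesenchymal list 11, matrix glycoproteins 14, collagens 6 and contractile genes 5. Proteases and inhibitors counted 6 higher in place of 9, NRF2 targets 2 in place of 4 and p53 targets 5 in place of 3, and 1 lung alveolar gene passed as lower. Whether the trend is part of the difference between the cells or of the libraries was not tested.

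**Figure D4:**
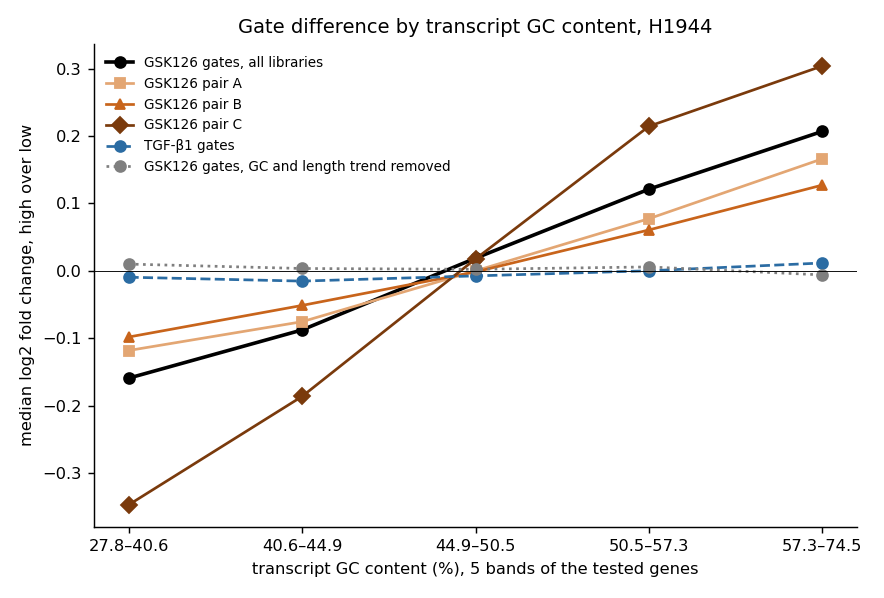
Median log2 gate difference by band of transcript GC content, for the GSK126 gates in the whole fit and in each letter pair, for the GSK126 gates with the trend removed, and for the TGF-β1 gates. The GSK126 lines climb from −0.16 to 0.21 in the whole fit and furthest in pair C, and the TGF-β1 line stays flat.

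Unsorted naive cells give a reference position for the gates, though they differ from both gates in treatment and in sorting. Of the 493 increases, the naive mean lay below both gates in 314 (63.7%), between them in 137 (27.8%) and above both in 42 (8.52%). Over all 7239 tested genes with a higher mean in the high gate these shares were 57.9, 18.6 and 23.5%. Of the 451 decreases, the naive mean lay below both gates in 66 (14.6%), between them in 255 (56.5%) and above both in 130 (28.8%). Over all 6379 tested genes with a lower mean in the high gate these shares were 43.9, 23.1 and 33%. FN1, AXL and TGFB2 were of the first kind, below both gates, while KRT7, EEF1A2 and UCHL1 lay between. These positions reuse the gate libraries that made the calls and are given as a description.

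The TGF-β1 gates share no library with the GSK126 gates and separated the reporter by 1.59 ± 0.09, and 8 genes (0.0587%) passed between them, of which 2, the cytokine IL11 among them, were higher (0.0147%) and 6 were lower (0.044%). Between those gates 701 genes had an unadjusted p under 0.05, against 2932 between the GSK126 gates. The TGF-β1 gate libraries held 1660148 to 3273676 counts, against 2077191 to 4550040 in the GSK126 gates. The part of depth in these numbers of genes was not tested. TAGLN stood at 1174 to 1237 CPM in the low and 1191 to 1290 CPM in the high TGF-β1 gate, and VIM at means of 1418 and 1539 CPM, both far above their GSK126 values in either gate. The gate effects were tested against each other, and 55 genes (0.404%) differed at an adjusted p under 0.05, with 46 larger (0.338%) and 9 smaller (0.0661%) under GSK126 (1538 at an unadjusted p under 0.05). That count was 203 with the letters of both treatments taken as pairs and 145 without high-gate B of GSK126. It was 23 without low-gate B of GSK126, 26 without high-gate A of GSK126 and 23 to 27 with any 1 of the 6 TGF-β1 libraries left out.

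Large positive differences of gate effects, among genes averaging 2 CPM or more over the 12 gate libraries, were those of ZNF469 (4.12), IL31RA (1.95), AFAP1L2 (1.93) and ECM1 (1.84). With the 12 gate libraries left out in turn, ZNF469 lost its call in 11 settings, IL31RA in 10, AFAP1L2 in 8 and ECM1 in 2. ECM1, an extracellular matrix protein, was at 5.71, 7.6 and 13 CPM against 2.23, 2.23 and 2.01 CPM under GSK126 and at means of 52.3 and 50.5 CPM under TGF-β1. KRT7 differed between treatments by 1.74, as its TGF-β1 means were 45.8 CPM in the high and 58.3 CPM in the low gate, and TAGLN by 1.54, both with each library left out. In the other direction SEMA6A, a semaphorin, had a difference of −1.77: it was at 12.5, 16.2 and 22.6 CPM against 22.0, 29.2 and 23.9 CPM under GSK126, where the gates overlapped, and at 6.28 to 6.66 CPM against 2.74 to 3.05 CPM under TGF-β1; this call was lost in 8 of the 12 settings. FN1, CDH1 and mVenus itself did not pass this test, with mVenus at 0.24 ± 0.13 (adjusted p = 0.514).

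**Figure D5:**
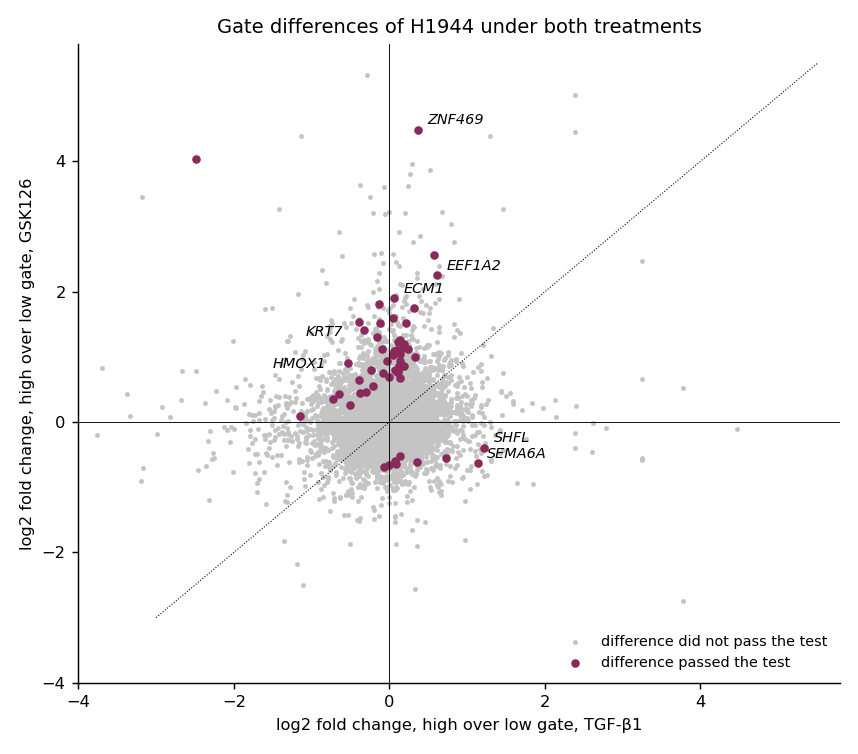
Each point is 1 tested gene, with its log2 gate difference under TGF-β1 on the horizontal axis and under GSK126 on the vertical axis; coloured points differed between the treatments, and 13 genes lie outside the axes. Most coloured points lie above the dotted line of equal differences; ZNF469, the highest of them, differed by 4.12 between the treatments.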

How the data were processed

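RNA was measured in 28 libraries, of which the 15 from H1944 entered the fit. Per the labels, libraries came from 10 ng of total RNA with a stranded low-input kit. The deposited table holds raw read counts for 60483 Ensembl genes and 4 reporter rows; STAR 2.6.0c, HTSeq 0.12.3 and GRCh38 are named in the submitters' processing notes, and the counting options and annotation release are not given in the sources used here. Symbols for 56753 IDs, biotypes and coordinates come from GENCODE 29. Levels are CPM, counts over the library total.

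Differences were tested with edgeR 4.0.16 (R 4.3.3): TMM scaling, filterByExpr, 1 quasi-likelihood fit over the 5 H1944 groups, and Benjamini-Hochberg adjustment over all tested genes at 0.05. The common coefficient of variation was 0.0978, with 10 residual degrees of freedom. On simulated counts of 13371 genes, the gate comparison recovered 49.3, 77.6 and 98.5% of genes changed 1.5-, 2- and 4-fold, with 6 false calls. The difference of gate effects recovered 11.9, 49.3 and 87.9%, with 13 false calls. The changed genes were taken from those with a mean fitted count of at least 10. Counts were drawn independently for each library, without a GC trend between gates or deviations shared by a letter. The rates hold for such counts only. Replicates differed beyond counting noise (chi-square per degree of freedom 3.15 to 5.69).

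The letters were checked as pairs: over 11714 genes, deviations from the group mean correlated between same-letter GSK126 gates at 0.121 (A), 0.156 (B) and 0.119 (C), and at −0.0884 to −0.0378 for other letters. The pairing comes from these data, not from the labels. Between the TGF-β1 gates the same-letter values were 0.077, 0.0998 and −0.0175.

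The comparison, gene lists and rules were chosen with earlier results of these data known. The text names the 12 highest and 12 lowest coding genes that passed, with at least 2 CPM over the 6 libraries and gates that do not overlap; from among the 4 smallest p-values of each list; all central EMT genes; and the 5 highest and 5 lowest differences of gate effects. Alternatives were DESeq2 1.42.0, limma-voom (limma 3.58.1), RLE size factors, other filters, a replicate block, the compared gates alone and each library left out. The GC and length correction, the stray-read covariate and the restriction to coding genes of at least 5 CPM were chosen after seeing the data. Promoters come from RefSeq (GRCh38.p14). All 1193 matched list entries of 1194 were used; FSP1 did not match. Some genes that these rules select are not reported here.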

Additional observations from a re-analysis of the deposited data

Results flagged for a closer look

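The gate effect differed between GSK126 and TGF-β1, by edgeR's test of the difference itself, for 29 of the named genes: 24 had a more positive effect under GSK126 and 5 a more negative one. Among contractile and cytoskeletal genes the difference (log2, GSK126 minus TGF-β1) was 1.64 for ACTA2, 1.54 for TAGLN, 1.32 for MYL9, 0.80 for VIM and 0.70 for FLNA. Among matrix genes it was 1.84 for ECM1, 1.03 for LTBP2, 0.99 for TGFBI, 0.89 for COL7A1, 0.71 for COL4A1 and 0.54 for COL4A2. Keratins gave 1.74 for KRT7 and 1.01 for KRT17.

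Secreted and signalling genes with a difference were IL31RA, a cytokine receptor, at 1.95, AFAP1L2 at 1.93, PHLDA1 at 1.03, the ephrin receptor EPHB2 at 0.96, TGFB2 at 0.91 and PLK2 at 0.74. Metabolic and stress genes were HMOX1 at 1.44, the aldehyde dehydrogenase ALDH3A1 at 1.07 and SLC2A1 at 0.76. EEF1A2 stood at 1.64 and ZNF469 at 4.12.

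The more negative differences were −1.77 for SEMA6A, −1.61 for SHFL, an interferon-induced inhibitor of viral frameshifting, −1.27 for DPM1, a dolichol-mannose synthase, −0.73 for PUS7L and −0.67 for the autophagy receptor TAX1BP1. SHFL and DPM1 did not pass in either treatment alone. With each of the 12 gate libraries left out in turn, 10 of the 29 kept their call every time: FLNA, COL4A1, COL7A1, TGFBI, KRT17, MYL9, HMOX1, TAGLN, EEF1A2 and KRT7. The other 19 lost it in at least 1 setting.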

How the results depend on the processing

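The count of 944 stayed within 1.5 times under DESeq2 (917), RLE size factors (939), limma-voom (1166), the stray-read covariate (1006) and the correction for GC and length (634). RLE size factors gave 448 higher and 491 lower genes, DESeq2 395 and 522. It moved to 428 with the compared gates alone, 510 with a filter at 1 CPM, 570 with no filter, 119 at 2-fold or more and 1476 with the replicate block. With 1 library left out it ran from 308 to 1374. The cause was not tested.

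The 55 differences of gate effects became 126 under DESeq2, 152 under limma-voom, 83 with GC and length corrected, 145 with that and the block, 85 with the covariate, 24 with the 1 CPM filter, 88 among coding genes of at least 5 CPM and 203 with the replicate block. They ran from 23 to 145 with 1 library left out.

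Signs turned for ZEB1 (0.0511 with GC corrected, 0.0878 with the block added, and −0.266 to 0.0903 with 1 library left out) and ZEB2 (0.0538 and 0.0745 in the same settings, and −0.452 to 0.206 with 1 library left out). With 1 library left out SNAI1 ran from −0.635 to 0.0595 and CDH2 from −0.0744 to 0.306, the turned value in each coming without high-gate A. RNU1-28P ran from −7.69 to 0.43 and RNU1-27P from −5.92 to 0.85, turned without low-gate A. The block ended no call of a named gene and added DPM1, KRT8, MUC5B, RPS24 and RPL13. At 2077191 counts a gene at 1 CPM has about 2 counts, so small differences of such genes were not detectable.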

Other observations

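RNU1-28P and RNU1-27P, U1 RNA copies on chromosome 14, passed the test as lower in the high gate (−7.08, adjusted p = 0.0307, and −5.28, adjusted p = 0.044, edgeR), and were singled out after their values were seen. Of 2346 low-gate counts of RNU1-28P, 2336 were in library A (745 CPM), and 295 of 298 for RNU1-27P. RNU1-28P also reached 835 CPM in naive library C and 355 CPM in TGF-β1 low-gate library A, and was at most 2.42 CPM in the other 12 H1944 libraries. The gates overlapped for both, and reads of near-identical U1 copies cannot be assigned with certainty.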
